A study of Mus musculus with 2 samples.

Results

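The RUNX and C/EBP transcription factor genes described here are Runx1, Runx2, Runx3, Cbfb, Cebpa, Cebpb and Cebpd, 7 genes out of the 21887 protein-coding genes of the mouse RefSeq table. They were chosen by name, and every FOS peak whose nearest gene or host gene is one of them was taken, which gave 6 peaks of 2374. The peaks come from 1 library of mouse granulosa cells immunoprecipitated with an antibody against FOS. The donors were wild-type females 25 days old that had been primed with PMSG, a gonadotropin that drives follicle growth. They then received hCG, a stand-in for the luteinizing hormone surge, and granulosa cells were taken by follicle puncture 3 h later. A second library with the same treatment, whose label names no antibody, was not analysed here. There are no replicates, no unstimulated cells and no FOS-deficient cells, and neither a pool of animals nor their number is given. Read counts are not part of the peak list, so the sequencing depth is unknown, and the spread between animals could not be measured for any value.

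RUNX proteins bind DNA through the Runt domain and do so more tightly once joined to CBFB, the non-DNA-binding partner that all 3 of them share. C/EBP proteins are basic leucine zipper factors that bind as dimers, as FOS does with JUN. Granulosa cells raise Runx1, Runx2 and Cebpb after the luteinizing hormone surge, and mice whose granulosa cells lack both C/EBP alpha and C/EBP beta do not ovulate normally. The series title gives the control of ovulatory genes by FOS as its subject, so the question here is where FOS sat around these 7 regulators.

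FOS peaks were given to 4 of the 7 genes. Runx1 had 1 peak, Runx2 had 3, Cebpa had 1 and Cebpb had 1, whereas Runx3, Cbfb and Cebpd had none. Each of the 6 peaks named its gene as the nearest one, and none was added through a host gene. Across all protein-coding genes, 8.69% had a peak by the same rule (1902 of 21887). The 7 genes were picked with earlier results of this peak list known, so that share is a background for reading the count and was not tested against it.

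By other ways of giving peaks to genes, the members' count held or shrank as follows. The nearest gene alone gave 4 members, beside 7.58% of protein-coding genes, and peaks within 100 kb of the TSS also gave 4, beside 7.89%. Any peak within 50 kb of the gene span gave 4, beside 18.2%, and any within 100 kb gave 4, beside 27.6%. With scores of 67 or more, the median of the list, 2 members kept a peak, Runx1 and Cebpb, beside 4.75%. With scores of 99 or more, the upper quartile, 1 member kept a peak, Runx1, beside 2.55%. Within 10 kb of the TSS 2 members kept a peak, Cebpa and Cebpb, beside 3.85%. Over all 49943 annotated genes in place of protein-coding ones, the share with a peak as nearest or host gene was 4.45%.

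Gene length differs widely among the members and the background share differs with it. Runx1 and Runx2 span 224.6 kb and 318.8 kb, and 24.7% of the 990 protein-coding genes of 200 kb or more had a peak. Cebpa, Cebpb and Cebpd are short genes without introns, of 2.64 kb, 1.52 kb and 2.26 kb, and 2.86% of the 5034 genes under 5 kb had a peak. Runx3 at 57.3 kb and Cbfb at 47.3 kb lie between, in length classes with peaks at 15.9% of genes (50 to 200 kb) and 7.42% (5 to 50 kb).

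**Figure D1:**
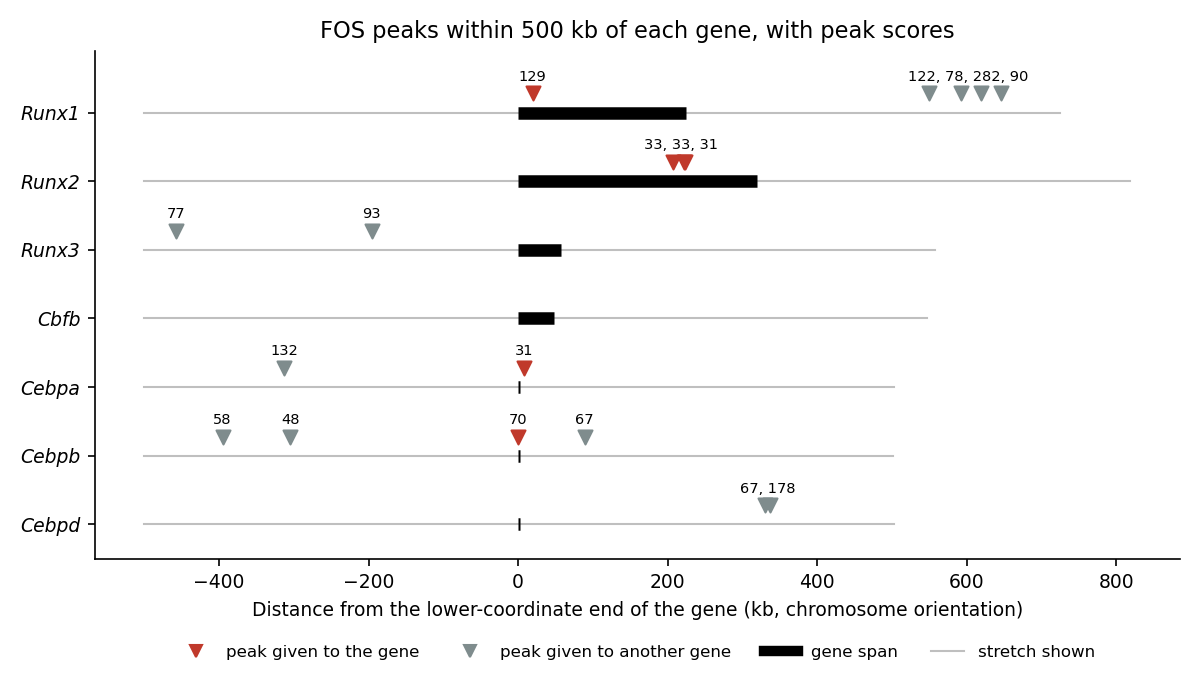
FOS peaks (triangles) within 500 kb of each of the 7 genes, drawn along the chromosome with 0 at the lower-coordinate end of the gene, and the authors' peak score above each. Black bars are gene spans, and labels of peaks that lie close together are joined in order of position. Peaks given to Runx1 and Runx2 lie inside the gene, those given to Cebpa and Cebpb lie just outside it, and the stretch drawn for Cbfb holds no peak.

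Runx1, whose product is a DNA-binding RUNX subunit induced in granulosa cells before ovulation, held the highest-scoring peak of the group. The peak covered chromosome 16, 92620779 to 92621126 (mm10), was 348 bp wide and had an authors' peak score of 129. The score is given in whole numbers and was used to order the peaks of this list. The Runx1 peak was at rank 359 of 2374, which is the 84.9th percentile of the list counted from the lowest score. The authors placed it in intron 3 of 4 of Runx1. Its centre was 76.4 kb downstream of the TSS to which the authors assigned it. That site matches the downstream one of the 2 Runx1 starts in the RefSeq promoter table. From the upstream start the centre was 205.1 kb away, and the peak lay 19.3 kb before the 3′ end of the gene. The peak therefore lay toward the far end of the gene and away from both starts. The next peak given to another gene was 324.5 kb from the gene span, on the upstream side of Runx1. It was the first of 4 intergenic peaks given to 1810053B23Rik, with scores of 122, 78, 282 and 90 in order. They lay 112.6 to 208.8 kb from the TSS of that gene. With them Runx1 had 5 peaks within 500 kb, and 93.7% of protein-coding genes had fewer. Within 250 kb Runx1 had 1 peak, its own, and 53.3% of protein-coding genes had fewer.

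Runx2, known as the master factor of bone formation and also expressed in luteinizing granulosa cells, had the most peaks of the 7 genes and some of the lowest scores. Its peaks at chromosome 17, 44702980 to 44703271 and 44718056 to 44718323, both scored 33. The remaining Runx2 peak, at 44718506 to 44718811, scored 31. Only 10.6% of all peaks scored 33 or less, so the 3 Runx2 peaks stood near the bottom of the list. All were intronic by the authors' annotation. Their centres lay 33.1 kb, 18.0 kb and 17.5 kb downstream of the TSS the authors assigned, which is not a start in the RefSeq promoter table, and 111.5 kb, 96.4 kb and 96.0 kb from the upstream start that the table gives. Of the 3 peaks, the pair nearest to the TSS were separated by 182 bp. Such closeness was uncommon in the list, in which 69 peaks (2.91%) had a neighbour within 1 kb. Supt3, whose RefSeq span overlaps the 5′ part of Runx2, began 58.3 kb beyond the last of the peaks, so none lay in the shared stretch. Of all protein-coding genes 43 (0.196%) had 3 or more peaks touching the gene span, and 27 of those 43 were among the 990 genes of 200 kb or more, like Runx2, of which they made 2.73%. No further peak lay within 500 kb of Runx2, and the nearest given to another gene was 1037.8 kb away.

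Runx3 and Cbfb had no peak of their own. The nearest peak to Runx3, a RUNX gene best known from T cells and sensory neurons, was 195.8 kb away in an intron of Rsrp1, at chromosome 4, 134924376 to 134924820, with a score of 93. A nearer peak existed for 41.2% of protein-coding genes, and the median gap over all protein-coding genes was 278.8 kb. Cbfb had the emptiest surroundings of the 7 genes. Its nearest peak, at chromosome 8, 104634954 to 104635320 with a score of 42, lay 535.4 kb away, 3.82 kb upstream of the TSS of Rrad. No peak lay within 500 kb of Cbfb, as was the case for 36.3% of protein-coding genes.

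Cebpb, the C/EBP gene that luteinizing hormone induces, was the one member with a promoter peak. The peak at chromosome 2, 167688090 to 167688516, was 427 bp wide, the widest of the 6. It scored 70, against a median of 67 over the whole list, which put it at the 53.4th percentile. It was centred 612 bp upstream of the TSS and its edges lay 825 bp and 399 bp upstream, so it ended before the TSS. A further peak of score 67 lay 87.1 kb from the gene and was given to A530013C23Rik. Cebpb had 2 peaks within 100 kb, more than 92.2% of protein-coding genes. It had 2 within 250 kb, more than 77.8%, and 4 within 500 kb, more than 88.0%.

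The 250 bases upstream of the Cebpb TSS are shown because they separate the promoter peak from the start of transcription. They come from the RefSeq promoter table of GRCm38.p6 (the assembly behind mm10), as chr2:167688665-167688914 on the plus strand. The peak ended 148 bp before these bases, and capitals mark TGACG on either strand, the core that a CRE shares with many sites of ATF and CREB factors.
Cebpb: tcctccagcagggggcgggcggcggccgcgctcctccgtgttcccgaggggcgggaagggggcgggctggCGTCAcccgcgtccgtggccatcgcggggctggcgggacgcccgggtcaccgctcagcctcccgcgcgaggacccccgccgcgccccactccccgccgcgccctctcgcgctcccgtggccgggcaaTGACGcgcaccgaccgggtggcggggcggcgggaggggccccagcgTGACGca
The search for TGACG was added after seeing the data. Its 3 matches began 180, 53 and 7 bases before the TSS, all outside the peak. Of all 32851 promoter windows in the table, each of 250 bases before and 50 after a TSS, 20.8% held at least 1 such match and 1.03% held 3 or more. The windows were not matched for base composition. Neither AP-1 letters (TGACTCA or TGAGTCA) nor a full CRE (TGACGTCA) occurred in the Cebpb window. The sequence under the peak itself was not used here.

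Cebpa, which encodes C/EBP alpha and is better known from liver, fat and myeloid cells, had a single low-scoring peak. It covered chromosome 7, 35127082 to 35127349, scored 31 and was 268 bp wide. That is the smallest width in the list, shared by 8.38% of peaks, among them the Runx2 peak at 44718056 to 44718323. The centre of the Cebpa peak lay 7.92 kb downstream of the TSS, in an intergenic stretch 5.15 kb past the gene. Cebpg, the neighbouring C/EBP gene on the same chromosome, had no peak, and its nearest peak was this one at 70.5 kb. Cebpd, which encodes C/EBP delta, an inflammation-induced member, had none either. The nearest to it was a peak of score 67 lying 327.4 kb away in an intron of Pkp2, at chromosome 16, 16216979 to 16217246. A higher-scoring peak, of score 178, followed in the same intron, 334.9 kb from Cebpd.

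**Figure D2:**
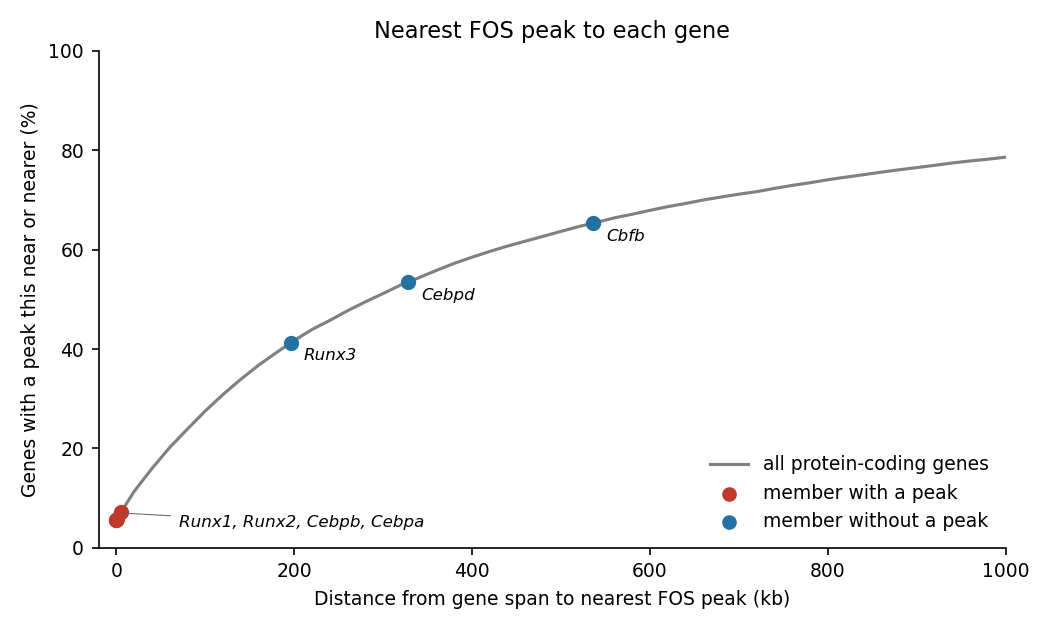
Distance from the gene span to the nearest FOS peak (x axis, kb) against the share of all 21887 protein-coding genes with a peak that near or nearer (y axis, percent). Grey is the curve of all genes, red points are members with a peak and blue points are members without. The 4 members with a peak sit within 5.15 kb of one, while Runx3, Cebpd and Cbfb lie at 195.8, 327.4 and 535.4 kb, on either side of the median of 278.8 kb.

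The 6 peaks ranged widely in score. The scores were 129 at Runx1, 70 at Cebpb, 33, 33 and 31 at Runx2, and 31 at Cebpa. Runx1 was the only member with a peak at or above the upper quartile of 99, and Cebpb was just above the median of 67. The other 4 peaks were under the lower quartile of 46. The median over the 6 peaks was 33, at the 9.63rd percentile of the list, but 3 of the 6 belong to 1 gene. Taking the best peak of each gene put the median at the 31.5th percentile. By class, 4 of the 6 were intronic, 1 was in a promoter and 1 was intergenic, against 44.7%, 15.2% and 35.4% of all peaks.

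**Figure D3:**
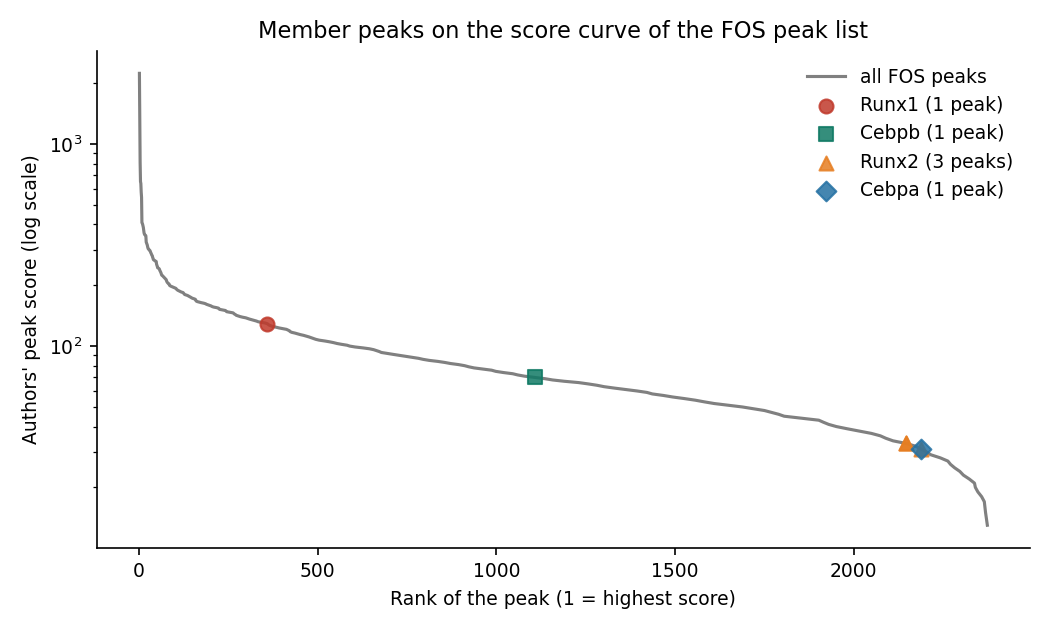
Authors' peak score (y axis, log scale) against rank (x axis, 1 is the highest) for all 2374 FOS peaks as a grey line, with the 6 member peaks as coloured points. The Runx1 peak at 129 and the Cebpb peak at 70 stand apart from the Runx2 and Cebpa peaks at 31 to 33, which crowd the low end and overlap in the plot.

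The promoter windows of the members held no AP-1 or CRE letters, and none was under a FOS peak. The table gave 8 windows for 6 members, namely 2 each for Runx1 and Runx3 and 1 each for Runx2, Cbfb, Cebpa and Cebpb. Among all 32851 windows, 6.96% held AP-1 or CRE letters, and 365 (1.11%) touched a FOS peak. With shares this low, finding none among the 8 does not set the members apart. AP-1 letters occurred in 26.8% of those 365 windows and in 4.96% of the other 32486, and a full CRE in 8.22% and 1.72%. The canonical C/EBP letters (TTGCGCAA, TTGCACAA or TTGTGCAA) were in none of the 8 member windows and in 1.19% of all windows. A match is a run of letters and not a measured site, and its absence concerns these windows alone.

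**Figure D4:**
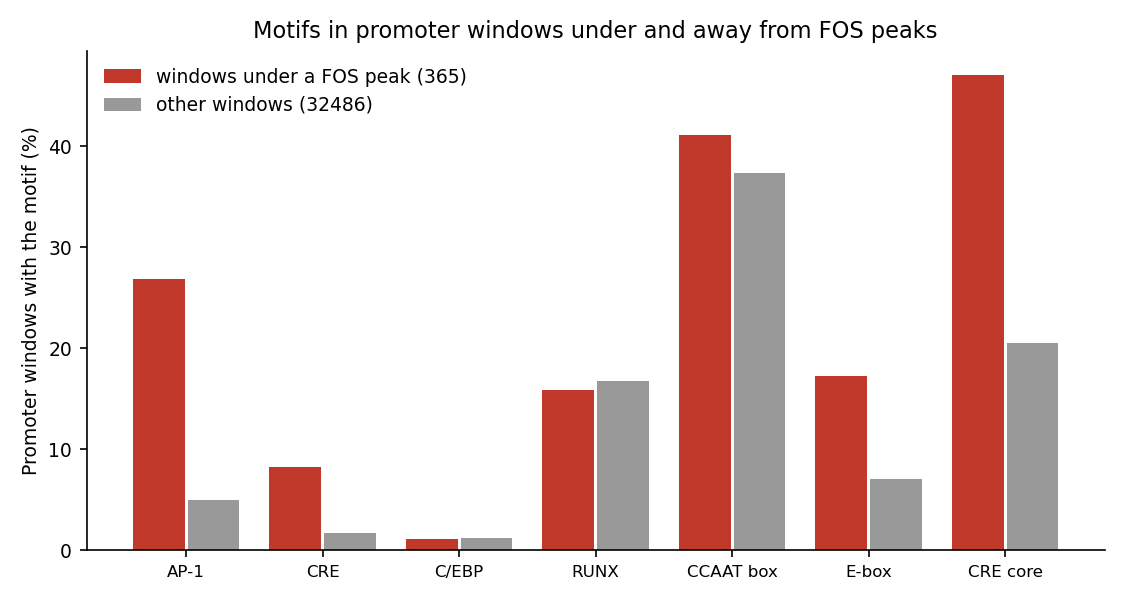
Share of promoter windows with each motif (y axis, percent), for the 365 windows under a FOS peak in red and for the other 32486 in grey. Letters were searched on both strands, and CRE core is TGACG, which is also counted where it lies inside a full CRE. AP-1 letters were in 26.8% of windows under a peak and 4.96% of others. A full CRE (8.22% and 1.72%), the CRE core (47.1% and 20.5%) and the E-box CACGTG (17.3% and 7.04%) were also more frequent under a peak. RUNX letters (TGTGGT) were in 15.9% and 16.8%, and C/EBP letters in 1.10% (4 windows) and 1.19%.

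The RUNX genes shared a stretch of sequence at their upstream starts that the choice of members did not use. RUNX letters were absent from the windows at the downstream starts of Runx1 and Runx3. In the upstream windows of Runx1, Runx2 and Runx3 they occurred 2, 3 and 2 times, while 1.81% of all windows held 2 or more. The longest stretch common to these 3 windows was 18 bases long and carried a closely spaced pair of them. It is shown with its neighbouring bases, 5′ to 3′ on the strand of the gene, with RUNX letters (read here as the other strand of TGTGGT) in capitals. The stretches are chr16:92826025-92826054 (minus strand), chr17:44814583-44814612 (minus strand) and chr4:135120503-135120532 (plus strand) of GRCm38.p6.
Runx1: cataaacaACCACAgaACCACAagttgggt
Runx2: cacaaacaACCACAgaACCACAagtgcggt
Runx3: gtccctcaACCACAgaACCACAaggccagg
Only 4 windows in the table held the shared 18 bases, those of the 3 RUNX genes and that of Gm16225, an opposite-strand transcript whose start lies beside Runx3 and whose window covers the same bases. The pair lay after the TSS in Runx1 and Runx2, beginning 28 and 23 bases from it, and 134 bases before the TSS in Runx3. The FOS peaks at Runx1 and Runx2 were far from this stretch, at 205.1 kb and at 96.0 kb or more from the upstream start.

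Of 31 genes of the C/EBP family or whose products act with RUNX and C/EBP factors, 8 had a peak, beside the 8.69% of all protein-coding genes. With 6 further genes that rodent granulosa work ties to these factors, 12 of 37 had a peak. The lists were written with earlier results for some of their genes known, and these shares were not tested. Of 10 genes listed as RUNX corepressors or their relatives, 3 had a peak. Tle5, of the Groucho family, had an intronic peak of score 97. Cbfa2t2 of the ETO family held 1 of score 62 that was given to 1700003F12Rik. Tle3 had an intergenic peak of score 41 whose centre was 201.7 kb past the TSS. Of 6 coactivators and modifiers, Kat6b and Crebbp had peaks. Kat6b had a peak of score 62 in its own intron. Another, of score 36, lay in an intron of Adk, 109.6 kb upstream of the Kat6b TSS. Crebbp, the acetyltransferase CBP, had 1 in intron 1 of 30 with a score of 29. Of 7 genes in the degradation of RUNX or C/EBP proteins, Trib1 and Trib2 had peaks. Both encode scaffolds that bring the ubiquitin ligase COP1 to C/EBP alpha. The promoter peak of Trib1 scored 78 and was centred 33 bp upstream of the TSS. A peak of score 22 lay 81.1 kb upstream, in an intron of Nsmce2. Trib2 had 3 remote upstream peaks, of which the highest-scoring was the farthest. They scored 91, 80 and 48 and lay 329.0 kb, 153.5 kb and 88.0 kb upstream. None of the 5 DNA-binding partners Ets1, Gata4, Spi1, Myb and Atf4 had a peak. Among the 37 genes, 4 without a peak of their own had a peak of another gene within 50 kb. It lay 10.9 kb from Tle2, 16.0 kb from Prmt1, 20.7 kb from Gata4 and 38.8 kb from Inha. Any peak within 50 kb of the gene span was found for 14 of the 37, beside 18.2% of protein-coding genes.

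**Figure D5:**
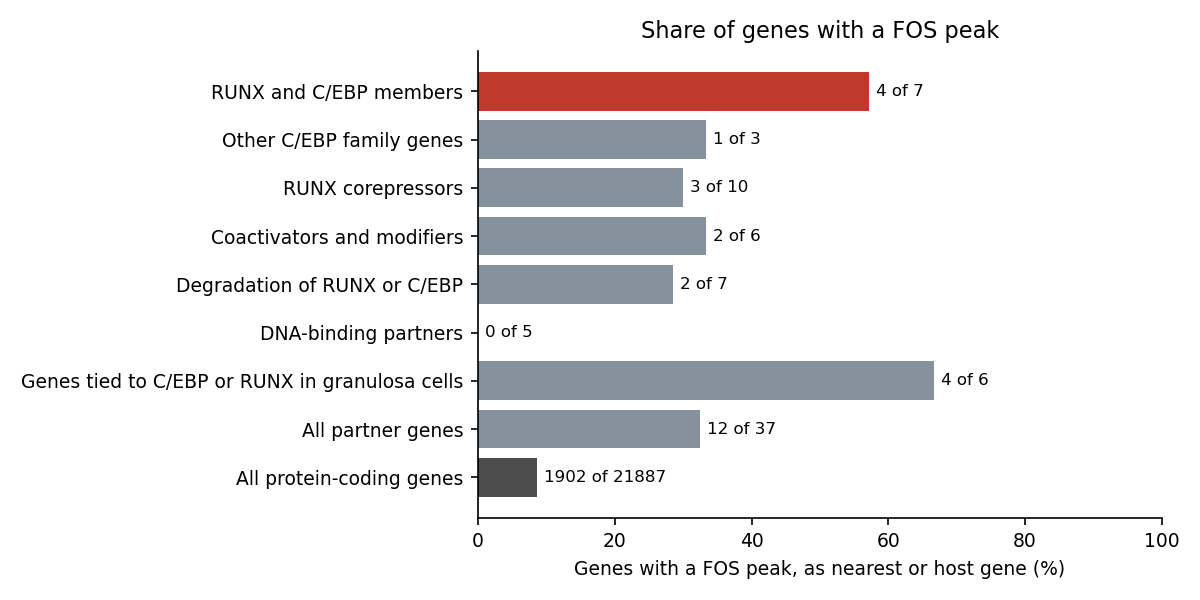
Share of genes with a FOS peak as nearest or host gene (x axis, percent), with counts beside the bars. Red is the 7 members, grey the lists of family, partner and granulosa genes, and black all protein-coding genes. The members (4 of 7) and the genes tied to C/EBP or RUNX in granulosa cells (4 of 6) have the longest bars, the DNA-binding partners (0 of 5) have none, and 1902 of 21887 protein-coding genes have a peak. Lists this small shift by many percent with a single gene.

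The highest-scoring peak in the C/EBP family was at Ddit3, which encodes CHOP, a partner that joins other C/EBP proteins and keeps them from their usual sites. Of the other 3 C/EBP genes, Ddit3 alone had a peak, and Cebpe and Cebpg had none. The Ddit3 promoter peak at chromosome 10, 127290299 to 127290745, scored 266, at the 98.3rd percentile of the list and above all 6 member peaks. Among 6 genes that work on rat or mouse granulosa cells ties to C/EBP or RUNX factors, Ptgs2, Star, Prlr and Rgcc had peaks, and Inha and Hapln1 had none. Both lists are small and were written with earlier results for some genes known. Their counts stand beside 8.69% of all protein-coding genes and were not tested. Ptgs2, whose product makes prostaglandins in the ovulating follicle, had a peak on its promoter at chromosome 1, 150099843 to 150100184, with a score of 44. Star, the mitochondrial cholesterol carrier, had a promoter peak of score 81. Its other peak, of score 104, lay in an intron of Ash2l, 11.0 kb from the Star TSS. Prlr, the prolactin receptor, had an intronic peak that scored 78, and Rgcc, a cell cycle regulator, had 1 that scored 77.

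The promoters of Ddit3 and Ptgs2 are shown because a FOS peak covers most of each window, 203 and 238 of its bases. Both stretches are the 250 bases before the TSS on the plus strand, chr10:127290543-127290792 and chr1:150099781-150100030 of GRCm38.p6 from RefSeq. Capitals mark AP-1 letters in Ddit3, and in Ptgs2 the RUNX letters (nearer the left end) and the C/EBP letters.
Ddit3: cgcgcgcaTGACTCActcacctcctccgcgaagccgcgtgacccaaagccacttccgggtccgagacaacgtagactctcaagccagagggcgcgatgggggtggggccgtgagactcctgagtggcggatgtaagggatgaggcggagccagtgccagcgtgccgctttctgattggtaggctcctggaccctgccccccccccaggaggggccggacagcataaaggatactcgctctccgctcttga
Ptgs2: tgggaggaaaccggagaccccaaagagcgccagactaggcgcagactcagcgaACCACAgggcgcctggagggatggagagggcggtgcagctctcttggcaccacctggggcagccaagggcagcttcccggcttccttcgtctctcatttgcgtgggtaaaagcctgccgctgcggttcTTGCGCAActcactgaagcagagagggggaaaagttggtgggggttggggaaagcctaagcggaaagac
The AP-1 letters of Ddit3 began 242 bases before the TSS and lay under its peak. The C/EBP letters of Ptgs2 began 69 bases before the TSS, also under the peak, and its RUNX letters began 197 bases before the TSS, outside the peak. The Ptgs2 window held neither AP-1 nor full CRE letters. It held the TGACG core once and an E-box (CACGTG) once, in overlapping letters that began 13 and 16 bases after the TSS. They lay beyond the printed stretch and under the peak. Positions in Ptgs2 are counted here from the start in the RefSeq promoter table. The authors centred the peak 111 bp upstream of a TSS farther downstream, and these letters lie before that TSS. Which protein occupied these letters was not measured.

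The cell type could not be checked from this list, since a peak or its absence is not a level of RNA. Beside the 8.69% of all protein-coding genes, 2 of 6 granulosa markers had a peak, Esr2 and Cyp19a1, while Foxl2, Fshr, Inha and Amhr2 had none. RUNX1, C/EBP alpha and C/EBP delta also act in white blood cells, and of 6 leukocyte markers Itgam alone had a peak, of score 80 at the end of the gene, while Ptprc, Spi1, Csf1r, Cd68 and Lyz2 had none. Of 3 endothelial markers Cdh5 had a peak and of 2 theca markers Cyp17a1 had a peak. Itgam and Cdh5 counted only as host genes, since the nearest genes to their peaks were Itgax and Gm29682. The Cyp17a1 peak lay in an intron of Wbp1l. What part other cells had in the peaks at the members was not tested.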

How the data were processed

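Values from 1 of 2 libraries, the FOS ChIP-seq library, were analysed. Per the file headers, the authors annotated a narrowPeak file with HOMER's annotatePeaks, using a GTF of genes and a genome FASTA. Per the submitters' processing notes, the build was mm10 and the tools included MACS2 2.2.7.1 and deepTools 3.5.1, beside BWA and Trim Galore. No source used here gives the control library or the peak threshold. The deposited score is the authors' whole number per peak, from 13 to 2234. Its scale is not stated, and it was used to rank peaks within this list alone. Other deposited values were positions and signed distances to the TSS.

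All 2374 nearest genes matched a RefSeq table of GRCm38.p6 by accession, symbol or older symbol, and 3 of 1534 host names did not. A gene had a peak if it was the nearest gene or the host gene named in the annotation. Gaps were measured from RefSeq gene spans to peak edges. Motifs were searched on both strands, and matching was tested on simulated data with planted peaks and motifs. The members and lists were chosen with earlier results of these data known, so no test was run. The genes named are all members with their peaks, every list gene with a peak, and peaks of other genes within 250 kb. Peaks of other genes beyond 250 kb, the list genes with a peak of another gene within 50 kb, the TGACG core and the stretch shared by the RUNX promoters were picked once their values were known. Python 3.11.15 with numpy 2.4.6, pandas 2.3.3 and matplotlib 3.10.9 was used.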

Additional observations from a re-analysis of the deposited data

How the results depend on the processing

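Counting the nearest gene alone, any peak within 50 or 100 kb of the gene span, or peaks within 100 kb of the TSS kept the count at 4 of 7 members. Scores at or above the list's median left 2 members, 2 peaks and 7 of the 37 partner and granulosa genes, beside 4.75% of protein-coding genes. Scores at or above the upper quartile left 1 member, 1 peak and 2 of the 37, beside 2.55%. A distance of at most 10 kb to the TSS left 2 members, 2 peaks and 6 of the 37, beside 3.85%. Of the 37, 12 had a peak by the rule used (beside 8.69%), 11 by the nearest gene alone (7.58%) or within 100 kb of the TSS (7.89%), 14 within 50 kb of the gene (18.2%) and 18 within 100 kb (27.6%). Without the 6 granulosa genes it was 8 of 31, a choice added after seeing the data. The median percentile of member peaks was 31.5 with the best peak of each gene and, chosen after seeing the data, 53.4 without the peaks of Runx2. No member window held AP-1 or CRE letters by any planned setting, beside 6.96% of all windows when the whole window was searched. By a search added after seeing the data, 1 member, Cebpb, held the TGACG core. No paired analysis was possible because only 1 library was analysed, and for the same reason no replicate could be left out. The unknown depth and the unstated score scale limit what a missing peak at Runx3, Cbfb or Cebpd shows.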
